A study of Mus musculus with 6 samples.

Results

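A set of 8 genes known as markers of striatal projection neurons was measured in ribosome-bound RNA of the mouse thalamus: Adora2a, Pde10a, Ppp1r1b, Rgs9, Drd2, Rasd2, Syndig1l and Rarb. They were picked by name, with their levels in these libraries already known, and are 8 of 32531 gene rows in the count tables. All 8 passed the filter on low counts. The mice were adult and untreated, and all of them carried the Slc17a6-EGFP/Rpl10a transgene of line JX883. In translating ribosome affinity purification (TRAP), selected cells produce a ribosomal protein with EGFP attached, and antibodies against EGFP pull their ribosomes from the homogenate. Rpl10a was the fused protein, and Slc17a6, which gives the line its name, is the vesicular glutamate transporter gene of thalamic relay neurons. The series holds 3 libraries of immunopurified RNA (IP) and 3 of Input, numbered 1 to 3 in each group. The labels state neither the mouse strain and sex nor whether animals were pooled or separate, so the spread between libraries may be technical in part. The labels call the molecule of the Input ribosome-bound too. Input was taken as RNA of the dissected tissue, an assumption that was not tested.

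Striatal projection neurons are the GABAergic output cells of the striatum, a forebrain region beside the thalamus. One class carries the dopamine receptor Drd1 and projects directly to the output nuclei of the basal ganglia, and the other carries Drd2 and the adenosine receptor Adora2a. In both, receptors raise or lower cyclic AMP, protein kinase A phosphorylates Ppp1r1b, and the phosphodiesterase Pde10a breaks the cyclic nucleotides down. Thalamic relay neurons are glutamatergic and lie outside this cell class, although some of the genes named as striatal markers are also made in other brain regions.

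The gene totals ranged from 44081149 to 54421395 reads per library. Levels are given as CPM, reads of a gene scaled to one library depth, with TMM factors, edgeR's correction for library composition. A count of 3 reads is worth 0.055 to 0.068 CPM. Slc17a6 had 6489, 2193 and 2200 CPM in IP 1, 2 and 3, and 3153, 876 and 478 CPM in Input 1, 2 and 3, so it was higher in IP within every pair. Chi-square per degree of freedom, a measure of how far the counts of libraries differ, was 304 between Input 1 and 3. It was 147 between Input 1 and 2 and 130 between Input 2 and 3, so Input 3 was not the odd library by this measure. In some marker genes, however, Input 3 stood apart from the other Input libraries. The 12 choroid plexus and ependymal markers summed to 1264 CPM there against 56.2 and 57.0 CPM in Input 1 and 2. Their most abundant gene, Ttr (transthyretin), had 1130 CPM in Input 3 against 14.5 and 6.65 CPM. Of 25 cortex and hippocampus genes 14 were highest in Input 3, against 38.4% of all tested genes, with a median ratio of 1.30 to the other Inputs. Camk2a and Rorb, the most abundant of them, had ratios of 1.82 and 0.53, and Neurod6, picked after its values were seen, had 25.0 CPM in Input 3 against 0.087 and 0.33 CPM. For the 18 thalamic glutamatergic markers the median ratio of Input 3 to the mean of the other Inputs was 0.59. Of the 12 choroid and ependymal markers, Tmem212 was at 0 in all IP libraries, and none was at 0 in all Input libraries. IP 3 also held more of these markers, 53.3 CPM in sum against 6.98 and 10.2 CPM in IP 1 and 2. The part of such other cells in the results below was not tested.

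The 8 genes fell into 3 patterns. Adora2a, Ppp1r1b and Rgs9 were lower in IP than in Input in 3 of 3 pairs. Rasd2 and Syndig1l were higher in IP in 3 of 3 pairs. Drd2 and Rarb were higher in IP in pairs 1 and 2 and lower in pair 3, and Pde10a was near equal in pairs 1 and 2 and lower in pair 3. Measured by these libraries, the name striatal marker thus covers 3 genes that were lower in IP within every pair and 2 that were higher. All 8 had their highest Input level in Input 3, as did 38.4% of all tested genes. The genes were chosen with both contrasts known, so these values are a description and support no test. In bulk tissue, fewer cells of a type and less RNA per cell cannot be told apart.

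**Figure D1:**
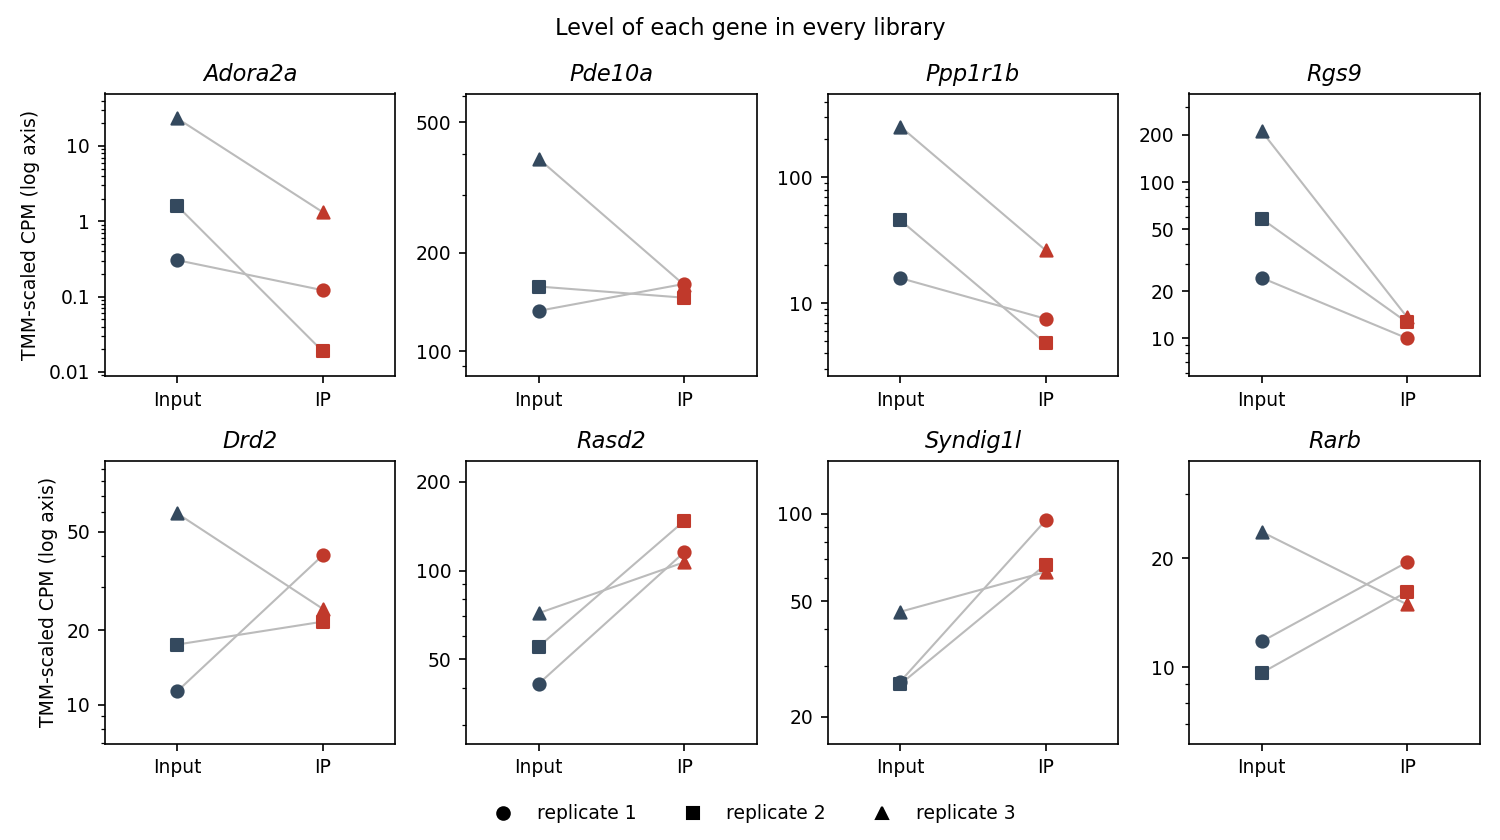
Level of each of the 8 genes in every library, as TMM-scaled CPM on a log axis that differs between panels. Lines join the Input (dark) and IP (red) libraries with the same replicate number, and the symbols give that number. Input 3 is the highest Input point in all 8 panels, and for Rasd2 and Syndig1l all IP points lie above all Input points.

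Adora2a encodes the excitatory striatal adenosine receptor, which raises cyclic AMP in the Drd2 class of striatal neurons. The gene lies on chromosome 10 from 75316877 to 75334784 (plus strand, GRCm38). It had 14, 78 and 1022 reads in Input 1, 2 and 3 (0.304, 1.597 and 23.2 CPM). In IP 1, 2 and 3 it had 6, 1 and 72 reads (0.12, 0.019 and 1.32 CPM). IP 3 thus held more than Input 1, so the groups overlapped, while each IP library lay below its own Input. The IP level was 40% of Input in pair 1 (95% counting interval 12.6% to 111%), 1.18% in pair 2 (0.0295% to 6.76%) and 5.71% in pair 3 (4.43% to 7.25%). These exact intervals cover counting error only. The interval of pair 1 includes equal levels, so a difference was not detectable there at this depth. Input 1 and Input 3 differed 76.2-fold, the widest range of the 8 genes.

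Ppp1r1b encodes the dopamine- and cAMP-regulated inhibitor of protein phosphatase-1 known as DARPP, a hub of striatal signalling. Its position is chromosome 11, 98348404 to 98357796 (plus strand). Its Input levels were 15.8, 45.7 and 253 CPM and its IP levels 7.52, 4.82 and 26.3 CPM in replicates 1, 2 and 3. IP 3 was the highest IP library by far and lay above Input 1, so the groups overlapped. Within pairs, Input stood 2.10, 9.49 and 9.62 times above IP. The noncoding gene 1700003D09Rik overlaps 15.7% of its exon length on the other strand. That gene had 20, 48 and 211 reads in Input and 0, 0 and 3 reads in IP. HTSeq, which counted the reads, can set those from a shared stretch aside as ambiguous. The strand setting is not stated, so the effect of the overlap on the Ppp1r1b level is not known.

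Rgs9 encodes a regulator of G protein signalling whose striatal form speeds the shut-off of inhibitory G proteins below Drd2. It lies on chromosome 11 from 109225355 to 109298129 (minus strand). Its Input levels were 24.4, 58.1 and 211 CPM, against 9.997, 12.6 and 13.6 CPM in IP. The groups did not overlap. The IP level hardly varied, with a highest-to-lowest ratio of 1.37, while the Input level varied 8.66-fold. The ratio of Input to IP was 2.44 in pair 1, 4.60 in pair 2 and 15.5 in pair 3.

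Pde10a encodes the cyclic nucleotide phosphodiesterase that is most abundant in striatal projection neurons. Its exons span chromosome 17 from 8525372 to 8986648 (plus strand). It had 161, 146 and 159 CPM in IP, against 133, 158 and 386 CPM in Input. The IP libraries lay within 1.10-fold of each other, at the level of Input 1 and 2, and only Input 3 stood above all of them. The log2 ratio of IP to Input was 0.27, -0.11 and -1.28 in pairs 1, 2 and 3.

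Drd2 encodes the dopamine receptor that lowers cyclic AMP. It lies on chromosome 9 from 49340627 to 49408177 (plus strand). In IP it had 40.1, 21.7 and 24.4 CPM, and in Input 11.4, 17.5 and 59.3 CPM. IP 1 was the highest IP library and Input 3 the highest Input library, so the order of the groups turned between pairs. The log2 ratio of IP to Input was 1.82 in pair 1, 0.31 in pair 2 and -1.28 in pair 3. Unlike Adora2a, which marks the same striatal cell class, Drd2 had 1979, 1152 and 1329 reads in the IP libraries.

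Rasd2 encodes Rhes, a small GTPase of the Ras family known from the striatum, where it dampens receptor signalling to cyclic AMP. The gene is on chromosome 8 from 75213944 to 75224113 (plus strand). It had 115, 147 and 107 CPM in IP, against 41.4, 55.2 and 71.8 CPM in Input. All 3 IP libraries lay above all Input libraries. IP exceeded Input 2.79-fold in pair 1, 2.67-fold in pair 2 and 1.49-fold in pair 3.

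Syndig1l encodes a transmembrane protein related to the synapse protein Syndig1. Its locus is chromosome 12 from 84677277 to 84698831 (minus strand). Its levels were 94.7, 66.7 and 63.0 CPM in IP, against 26.4, 25.9 and 45.9 CPM in Input, again with no overlap. IP exceeded Input 3.58-fold, 2.58-fold and 1.37-fold in pairs 1, 2 and 3. Gm48573, annotated there but not analysed here, overlaps 5.75% of its exon length.

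Rarb encodes the beta form of the retinoic acid receptor, a nuclear receptor through which vitamin A derivatives act during striatal development. It lies on chromosome 14 from 16430839 to 16819156 (minus strand). It had 19.5, 16.2 and 14.9 CPM in IP, against 11.8, 9.66 and 23.7 CPM in Input. IP was higher 1.66-fold and 1.67-fold in pairs 1 and 2, and Input was higher 1.59-fold in pair 3. Its last exons run into those of Top2b on the other strand, which share 34.1% of its exon length. HTSeq can set reads from such a stretch aside as ambiguous, and without a stated strand setting the Rarb level is uncertain for this reason.

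**Figure D2:**
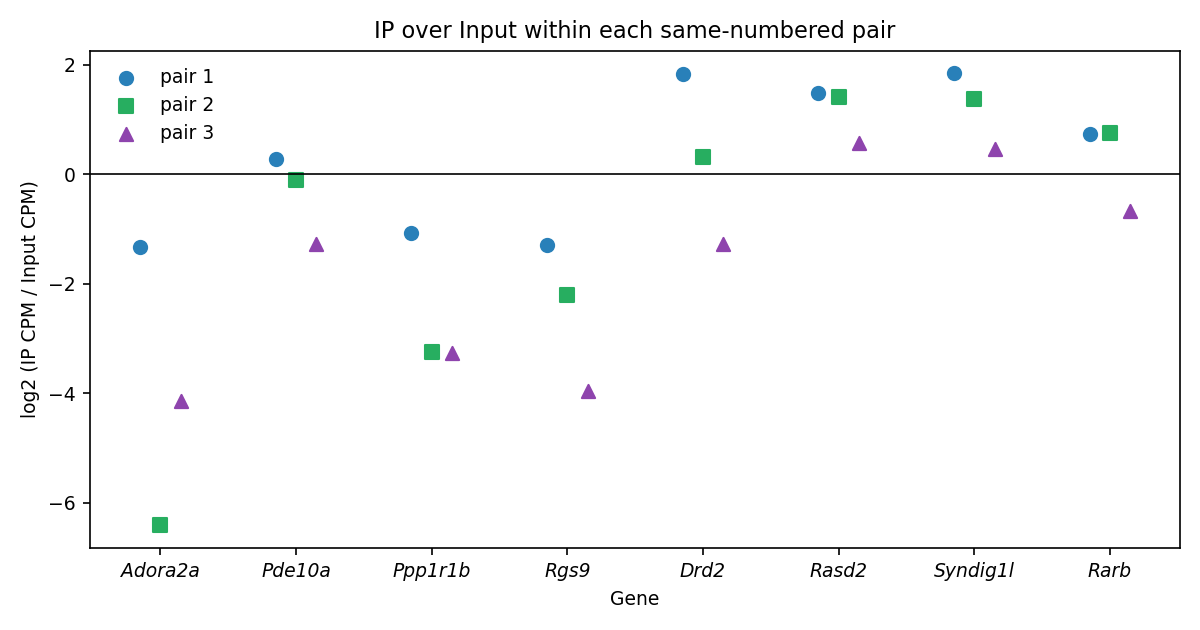
Log2 ratio of IP to Input CPM within each same-numbered pair for the 8 genes, with 0 at equal levels. Pair 3 is the lowest point for 7 of the 8 genes. Adora2a, whose pair 2 rests on 1 IP read, is the exception.

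Sequence before an annotated transcript start was at hand for 5 of the 8 genes, in 6 windows of 250 bases from RefSeq on GRCm38.p6. The windows of Rarb and Pde10a lie inside the gene spans given above, before an internal start. The Rarb window, chr14:16575477-16575726 on the minus strand, is shown because it holds the direct repeat by which retinoic acid receptors switch on their own gene, a textbook response element. Capitals mark that repeat (GTTCA, 6 further bases and GTTCA again, 52 bases before the start) and a TGANGTCA match, a relaxed form of the cyclic AMP response element (99 bases before the start).
Rarb: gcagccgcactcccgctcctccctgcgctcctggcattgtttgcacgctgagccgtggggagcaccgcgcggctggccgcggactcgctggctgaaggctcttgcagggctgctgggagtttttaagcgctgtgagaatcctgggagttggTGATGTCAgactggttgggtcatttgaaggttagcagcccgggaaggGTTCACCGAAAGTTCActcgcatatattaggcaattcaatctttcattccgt
Searched on both strands, the repeat was in 22 of 32851 windows of this length (0.067%), among the 6 windows of these genes in that of Rarb alone. TGANGTCA was in 7.49% of all windows and in 2 of the 6, those of Rarb and of a second Pde10a start. The strict form TGACGTCA was in 1.55% of all windows and in none of the 6. The motifs were picked when the sequences were at hand, and they do not overlap each other in the Rarb window. A match is a description of the letters, not of a bound site.

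One gene lower and one higher in IP, Rgs9 and Rasd2, were taken as examples, and their windows are shown with every CG dinucleotide in capitals. The Rgs9 window is chr11:109298182-109298431 on the minus strand, and that of Rasd2 is chr8:75213694-75213943 on the plus strand.
Rgs9: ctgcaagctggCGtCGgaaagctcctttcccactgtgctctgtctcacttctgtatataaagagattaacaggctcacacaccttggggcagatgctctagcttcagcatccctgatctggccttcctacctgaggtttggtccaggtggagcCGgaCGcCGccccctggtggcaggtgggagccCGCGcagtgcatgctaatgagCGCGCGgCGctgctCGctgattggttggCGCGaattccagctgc
Rasd2: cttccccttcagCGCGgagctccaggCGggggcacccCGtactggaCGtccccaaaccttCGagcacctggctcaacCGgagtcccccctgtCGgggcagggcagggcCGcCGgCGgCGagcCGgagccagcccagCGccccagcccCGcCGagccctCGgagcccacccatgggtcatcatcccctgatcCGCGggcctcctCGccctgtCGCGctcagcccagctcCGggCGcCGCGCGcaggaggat
The Rgs9 window held 14 CG dinucleotides and 59.6% G and C, and that of Rasd2 held 27 and 75.2%. The median over all 32851 windows was 6 and 52.4%. The Rgs9 window also held a TATAAA match, which 12.4% of all windows had. The windows of Drd2 and Rarb had 15 and 16 CG dinucleotides, and those of Pde10a 21 and 4.

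The fitted log2 fold change of IP minus Input was -4.09 ± 1.69 (SE) for Adora2a, -3.02 ± 1.0 for Ppp1r1b and -3.02 ± 0.68 for Rgs9. It was 1.13 ± 0.24 for Rasd2 and 1.19 ± 0.29 for Syndig1l. Pde10a had -0.54 ± 0.37, Drd2 -0.03 ± 0.56 and Rarb 0.17 ± 0.36. By the edgeR quasi-likelihood test at an adjusted p under 0.05, 3 of the 8 were called, Rasd2 and Syndig1l higher and Rgs9 lower, against 25.2% of all tested genes (9.6% higher and 15.6% lower). With the replicate number as a block, 5 were called, now with Adora2a and Ppp1r1b lower too, against 35.1% (15.9% higher and 19.2% lower). The IP and Input levels did not overlap for 3 of the 8, against 44.9% of tested genes. Nothing is read from these counts, since the contrast was used to choose the genes.

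Without Input 3 the fitted differences moved up for all 8 genes. Input 3 was the highest Input library for all 8, so that direction was fixed in advance and nothing is read from it. Adora2a stood at -0.94 ± 1.48 (SE), Ppp1r1b at -1.24 ± 0.71 and Rgs9 at -1.76 ± 0.36. Pde10a changed sign to 0.11 ± 0.18 and Drd2 to 1.01 ± 0.35. Rarb stood at 0.66 ± 0.26, Rasd2 at 1.36 ± 0.24 and Syndig1l at 1.53 ± 0.25. Without both libraries of replicate 3, Adora2a stood at -3.72, Ppp1r1b at -2.31 and Rgs9 at -1.86. Drd2 and Rarb stood at 1.11 and 0.74 in that fit. Without IP 3 alone the values moved the other way for the genes high in that library, to -6.87 for Adora2a and -4.09 for Ppp1r1b. The fitted sign was the same in 17 of 17 alternative fits for Adora2a, Ppp1r1b, Rgs9, Rasd2 and Syndig1l, in 15 for Pde10a, in 14 for Rarb and in 11 for Drd2.

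**Figure D3:**
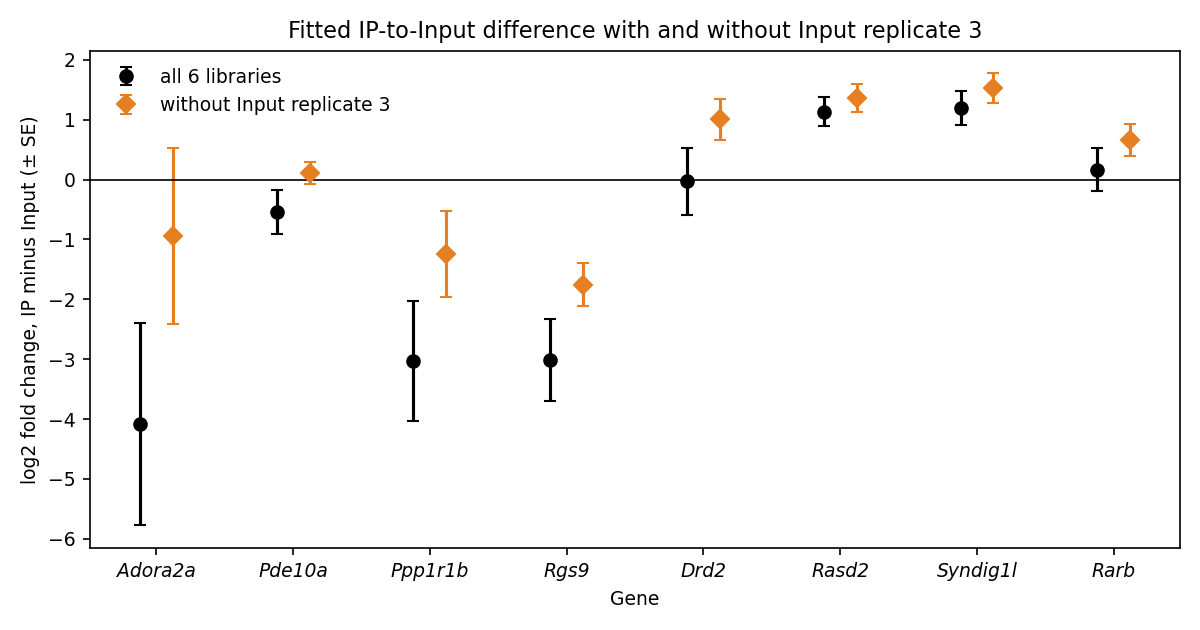
Fitted log2 fold change of IP minus Input with its standard error for the 8 genes, from all 6 libraries (circles) and without Input replicate 3 (diamonds). Each diamond lies above its circle, a direction fixed in advance because Input 3 was the highest Input library for all 8 genes. Pde10a and Drd2 cross 0, and Rasd2 and Syndig1l stay above it.

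Input 3 exceeded the mean of Input 1 and 2 by factors between 1.49 and 24.4 over the 8 genes, with a median of 3.38. The factor was 24.4 for Adora2a, 8.23 for Ppp1r1b, 5.12 for Rgs9 and 4.11 for Drd2. It was 2.66 for Pde10a, 2.21 for Rarb, 1.76 for Syndig1l and 1.49 for Rasd2. Over all tested genes the median factor was 0.98 and the 95th percentile 3.09. The genes lower in IP in all pairs had the largest factors, and those higher in IP in all pairs the smallest. Input 3 enters both this factor and the ratio of pair 3, so that order is partly built in and nothing is read from it. The ratio of Input 2 to Input 1 was 5.25 for Adora2a, 2.89 for Ppp1r1b and 2.39 for Rgs9. It was 1.54 for Drd2, 1.34 for Rasd2, 1.19 for Pde10a, 0.98 for Syndig1l and 0.82 for Rarb.

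The gain in Input 3 over the other Input libraries was 22.3 CPM for Adora2a, 223 for Ppp1r1b, 170 for Rgs9, 241 for Pde10a and 44.9 for Drd2. The matching gain in IP 3 over IP 1 and 2 was 1.25 CPM for Adora2a and 20.2 CPM for Ppp1r1b, or 5.63% and 9.06% of the Input gain. For Rgs9 and Pde10a it was 2.33 and 6.31 CPM, or 1.37% and 2.62%. The same share for summed marker lists was 6.08% for other striatal genes, 3.71% for choroid and ependymal and 2.97% for oligodendrocyte genes. It was 29.7% for GABAergic and 54.4% for striatal interneuron genes, lists that share Sst, Npy and Pvalb. Each share is a net of sums, not one common to the genes of a list. Over other striatal genes the median ratio of IP 3 to IP 1 and 2 was 1.01. There Meis2 had 75.2 CPM in IP 3 against 1.38 and 5.44 CPM, while Foxp1 had 193 CPM against 236 and 311 CPM. For cortex and hippocampus genes the share was -16.9%, as their sum was lower in IP 3. The median ratio of IP 3 to IP 1 and 2 in that list was 0.996. Camk2a, its most abundant gene, had 864 CPM in IP 3 against 943 and 868 CPM in IP 1 and 2. Neurod6, picked after its values were seen, had 7.89 CPM in IP 3 against 0.203 and 0.395 CPM, so single genes of the list did rise there. Drd2, Rasd2, Syndig1l and Rarb were lower in IP 3 than the mean of IP 1 and 2, with differences of -6.5, -24.6, -17.8 and -2.93 CPM. The IP side of these 4 genes therefore did not follow the Input side in replicate 3.

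**Figure D4:**
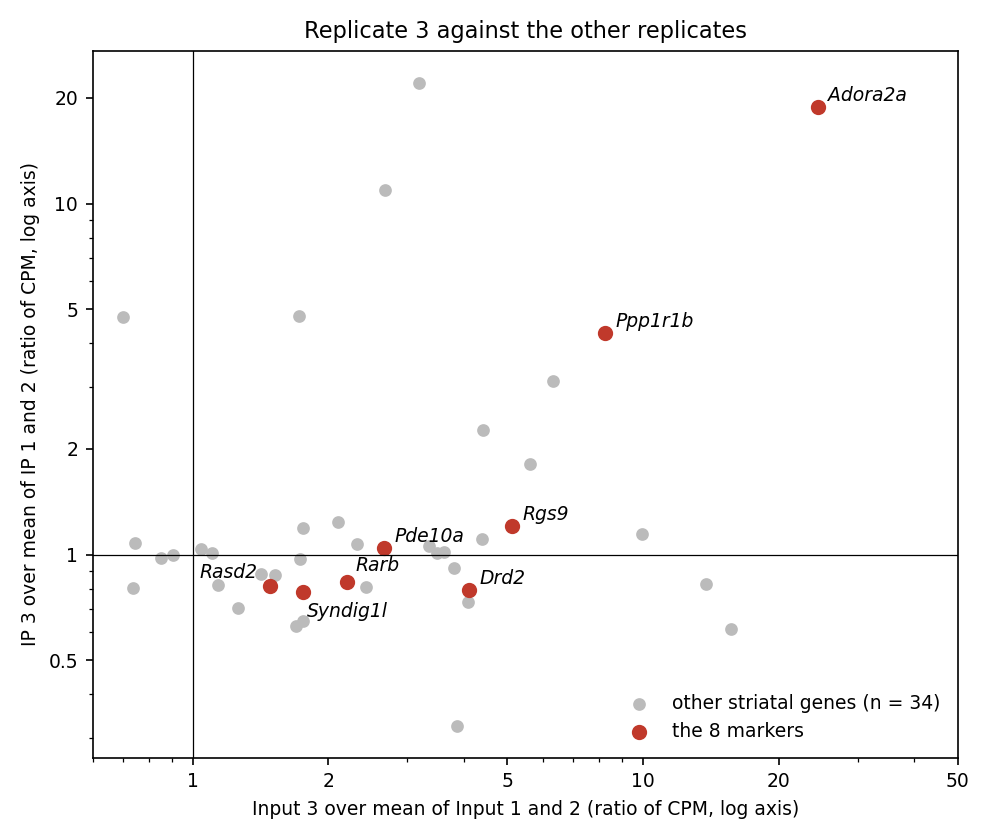
Level in Input 3 over the mean of Input 1 and 2 (horizontal) against the level in IP 3 over the mean of IP 1 and 2 (vertical), as ratios of CPM on log axes, for the 8 markers (red) and 34 other striatal genes (grey). Adora2a and Ppp1r1b are high on both axes, at 24.4 and 18.9 and at 8.23 and 4.27. The other 6 markers lie between 0.78 and 1.21 on the vertical axis.

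Per kilobase of exon, the order of the genes differed between IP and Input 3. In IP the mean level was 38.8 CPM per kb for Rasd2, 24.3 for Syndig1l, 12.1 for Pde10a and 11.3 for Drd2. Ppp1r1b had 4.40, Rarb 3.20, Rgs9 1.89 and Adora2a 0.16 CPM per kb. Rasd2 and Syndig1l did not overlap, while Pde10a overlapped Drd2, and Ppp1r1b overlapped Drd2, Rarb and Rgs9. In Input 3 Ppp1r1b led with 86.5 CPM per kb, followed by Rgs9 with 33.0, Pde10a with 30.1, Drd2 with 23.3 and Rasd2 with 22.6. Syndig1l, Adora2a and Rarb had 14.9, 7.58 and 4.49 CPM per kb there. Input 3 is 1 library, so that order has no replicate check. The lengths count every annotated exon.

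Striatal genes outside the 8 were taken from a list of 34 tested names. In the main fit, which did not use the pairing, 4 of these were higher in IP and 1 lower (11.8% and 2.94%). The other 29 did not pass (edgeR adjusted p under 0.05). Over all tested genes 9.6% were higher and 15.6% lower. The median log2 fold change of the list was -0.31, against -0.04 over all genes, and it was 0.29 without Input 3. For the fit without Input 3 no median over all genes was computed. As 28 of the 34 genes were highest in Input 3, a move up without it was partly built in. Tmem158 rose from 17.1 ± 6.77 to 52.2 ± 17.1 CPM (SD, n = 3), by log2 1.61 ± 0.36 (SE; edgeR adjusted p = 0.0126), and passed in 6 of 6 fits without 1 library, though not with replicate 2 removed from both groups (edgeR adjusted p = 0.108). The kinase gene Dclk3 rose by log2 1.16 ± 0.26 (edgeR adjusted p = 0.0137). Foxp2, a forkhead transcription factor gene of striatum and thalamus, rose by log2 0.82 ± 0.21 (edgeR adjusted p = 0.0228). Ptpn5, the striatal-enriched tyrosine phosphatase, rose from 168 ± 6.87 to 258 ± 6.42 CPM, by log2 0.62 ± 0.15 (edgeR adjusted p = 0.0205). The calls of Dclk3 and Foxp2 ended without IP 2 or without Input 2, and that of Ptpn5 also without IP 3. Their edgeR adjusted p then went up to 0.0530, 0.0915 and 0.0899. The count of higher genes was 1 without IP 2 or without Input 2, and that of lower genes 0 without IP 2, 4 without IP 3 and 5 without Input 1.

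Isl1, a transcription factor gene of the direct-pathway class and named outside the rule on levels, fell to 1.14 ± 1.13 CPM in IP, from 8.03 ± 1.93 CPM in Input. The log2 change was -2.81 ± 0.75 (edgeR adjusted p = 0.0265, and up to 0.0894 without 1 library, in the fits without IP 2 or Input 2). Unlike the 8 markers it was not highest in Input 3, where its ratio to the other Inputs was 0.70. The replicate block left the count of higher genes at 4 and raised that of lower genes to 7, adding Penk, Meis2, Scn4b, Actn2, Strip2 and Cd4. With the block the shares over all tested genes also rose, to 15.9% higher and 19.2% lower, so nothing is read from that rise. Penk, the enkephalin precursor gene of the Drd2 class, had a log2 fold change of -1.52 ± 0.42 with the block (edgeR adjusted p = 0.0167), and -1.95 ± 0.85 without it (edgeR adjusted p = 0.129). Leaving out Input 3 moved the unblocked value to -0.46 (edgeR adjusted p = 0.645). DESeq2 also called 4 higher and 7 lower, and limma-voom 4 and 2. Drd1, the receptor of the other class, had 7.69, 2.95 and 4.87 CPM in IP, against 5.85, 9.97 and 30.1 CPM in Input. It did not pass (log2 -1.57 ± 0.62, edgeR adjusted p = 0.0978), and stood at -0.60 without Input 3.

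The most abundant genes of the list did not pass. Gnal, the stimulatory G protein subunit that couples Drd1 and Adora2a to adenylyl cyclase, had a log2 fold change of 0.32 ± 0.16 (edgeR adjusted p = 0.186). Rgs7bp, which anchors Rgs9 and its relatives at the membrane, had 0.02 ± 0.20 (edgeR adjusted p = 0.953), a sign that flips with library totals and upper-quartile factors. Arpp21, a cyclic AMP-regulated phosphoprotein gene, had -0.81 ± 0.54 (edgeR adjusted p = 0.314) and 0.29 without Input 3, where its ratio to the other Inputs was 4.38. Of the 34 genes, 28 were highest in Input 3, against 38.4% of all tested genes, with a median factor of 2.21.

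The signalling chain around the receptors was taken as a further list. Of 44 tested genes of dopamine, adenosine and cyclic AMP signalling outside the 8, 11 were higher in IP and 3 lower (25.0% and 6.82%), with 30 not passing and a median log2 fold change of 0.33. The shares over all tested genes were 9.6% and 15.6%, and the difference from the other lists was not tested. The list holds 8 genes of the other striatal list. Gnas, the widely made stimulatory G protein gene, rose from 2085 ± 175 to 4359 ± 593 CPM (SD, n = 3), by log2 1.06 ± 0.17 (edgeR adjusted p = 0.00344). Cdk5, a kinase gene whose product phosphorylates Ppp1r1b, rose by log2 1.09 ± 0.17 (edgeR adjusted p = 0.00323). Of the protein kinase A subunits, Prkaca rose by log2 1.01 ± 0.27, Prkar1b by 0.97 ± 0.19, Prkar2b by 0.77 ± 0.18 and Prkacb by 0.56 ± 0.16. Pde4a, a cyclic AMP phosphodiesterase gene, rose by log2 0.83 ± 0.16, and the inhibitory G protein genes Gnai2 and Gnao1 rose by 0.82 ± 0.18 and 0.53 ± 0.14.

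Pde1c, a calcium-dependent phosphodiesterase gene, fell by 2.06 on the log2 scale (SE 0.52, edgeR adjusted p = 0.0215), and Creb1, a cyclic AMP-responsive transcription factor gene, fell by 0.62 (SE 0.20, edgeR adjusted p = 0.0481). Adora2b fell from 2.08 ± 0.62 to 0.30 ± 0.21 CPM (edgeR adjusted p = 0.0458). Creb1 and Adora2b passed in 0 of 6 fits without 1 library. Pde1c lost its call without IP 1, IP 2 or Input 3. Gnas, Cdk5, Pde4a and Prkar1b passed in 6 of 6 such fits, Gnai2 in 5, Prkar2b in 4, Prkaca and Gnao1 in 3 and Prkacb in 1. The fits that ended calls of these higher genes were those without IP 2, Input 2 or IP 3, and for Prkacb also those without IP 1 or Input 3. The calls of Gnao1 (edgeR adjusted p = 0.0701 and 0.0659) and Prkacb (edgeR adjusted p = 0.0504 and 0.0578) also ended with library totals and with upper-quartile factors, and that of Creb1 with library totals (edgeR adjusted p = 0.0647). With replicate 2 removed from both groups, all 11 calls of higher genes ended, with an edgeR adjusted p of 0.0974 for Gnas, 0.0743 for Cdk5, 0.112 for Pde4a and 0.103 for Prkar1b. The count of higher genes was 5, 4 and 6 without IP 2, Input 2 and IP 3. That of lower genes was 0 without IP 2 or Input 3 and 1 without IP 1, IP 3 or Input 2. With the replicate block 15 were higher, now with Adora1, Prkar1a, Ppp1cb and Ppp1r1a, and 5 lower, now with Adcy1 and Pde1a. Over all tested genes the block gave 15.9% higher and 19.2% lower.

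Relatives of the 8 genes were compared in a list of 18 tested paralogs, of which 3 were higher in IP and 2 lower (16.7% and 11.1%). The shares over all tested genes were 9.6% and 15.6%, and the difference from them was not tested. Rgs7, of the same subfamily as Rgs9, rose from 200 ± 10.6 to 329 ± 49.0 CPM, by log2 0.72 ± 0.18 (edgeR adjusted p = 0.0187). Rgs11, also of that subfamily, fell by 2.09 on the log2 scale (SE 0.43, edgeR adjusted p = 0.00933). Rasd1, the relative of Rasd2, rose by log2 1.36 ± 0.37 (edgeR adjusted p = 0.0289), and Syndig1, that of Syndig1l, by 1.16 ± 0.23 (edgeR adjusted p = 0.00814). Rgs11 and Syndig1 kept their calls without any 1 library and lost them when replicate 2 was removed from both groups (edgeR adjusted p = 0.144 and 0.132). Rasd1 lost its call without any 1 of the IP libraries, and Rgs7 without IP 2, Input 2 or IP 3. Adora1, the inhibitory adenosine receptor gene, had 289, 171 and 185 CPM in IP, against 139, 110 and 143 CPM in Input. Its log2 difference of 0.72 ± 0.24 missed the threshold (edgeR adjusted p = 0.0549) and passed with the replicate block (edgeR adjusted p = 0.0078), with library totals, without the filter and by DESeq2. Ppp1r1a, the relative of Ppp1r1b, stood at log2 0.91 ± 0.30 (edgeR adjusted p = 0.0533) and passed with the block (edgeR adjusted p = 0.0113), without Input 3 (edgeR adjusted p = 0.0155) and by DESeq2 and limma-voom. Pde2a had -0.58 ± 0.31 (edgeR adjusted p = 0.201).

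Of 16 tested retinoid pathway genes, 0 were higher and 3 lower (18.8%) by edgeR, near the 15.6% lower over all tested genes, with a median log2 fold change of -0.43. At an unadjusted p under 0.05 the counts were 1 and 5, by DESeq2 0 and 4, and by limma-voom 0 and 1. With the replicate block they were 1 and 3, the higher gene being Rxrb, a dimer partner of Rarb (log2 0.61 ± 0.21, edgeR adjusted p = 0.0398, and 0.117 without the block). Rxrb also passed without Input 3 (edgeR adjusted p = 0.0379). The block called 15.9% higher and 19.2% lower over all tested genes. Aldh1a1, a retinoic acid-making enzyme gene, fell from 107 ± 32.2 to 4.51 ± 1.53 CPM (SD, n = 3), or log2 -4.57 ± 0.34 (edgeR adjusted p = 0.000125). It passed in 6 of 6 fits without 1 library. Aldh1a7 and Stra6, the receptor gene for vitamin A uptake, are named outside the rule on levels. Aldh1a7 had 0.047 ± 0.066 CPM in IP, against 2.35 ± 3.06 CPM in Input, and as a close copy of Aldh1a1 it is uncertain. Stra6 had 0.050 ± 0.056 and 1.12 ± 1.10 CPM and passed in 0 of 6 fits without 1 library. Aldh1a7 lost its call without IP 2, IP 3 or Input 3. In those fits the count of lower genes was 1. Rara, another retinoic acid receptor gene, had 0.03 ± 0.44 (edgeR adjusted p = 0.967), with a sign that flips with upper-quartile factors, and Rxra had -0.21 ± 0.31 (edgeR adjusted p = 0.669).

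Genes with the most similar profile over the 6 libraries were sought among 10322 or 10323 named genes whose mean reached 5 CPM. The measure was the root mean square difference of centred log2(CPM + 1) values, which describes these libraries only. Near Adora2a were Itpka (0.22) and Crym (0.31). Nearest to Ppp1r1b were Crym (0.36), Penk (0.52) and Palmd (0.54), and to Rgs9 Zfp36 (0.35), Dlx1 (0.35) and Spaca6 (0.37). Itpka had 1.13, 2.23 and 27.6 CPM in Input 1, 2 and 3 and 0.91, 0.51 and 3.04 CPM in IP. Among the 8 themselves, Adora2a and Ppp1r1b differed by 0.53, Adora2a and Rgs9 by 0.65, and Ppp1r1b and Rgs9 by 0.67.

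Closest to Rasd2 were Commd1 (0.10), Rab15 (0.12) and Cox4i1 (0.12), and to Syndig1l Rbm15b (0.12), Mrpl20 (0.14) and Ppp1r37 (0.14). Rasd2 and Syndig1l differed from each other by 0.29 and from Ppp1r1b by 2.15 each. Pde10a was nearest to Zfp691 (0.078), Erf (0.080) and Prkcb (0.086). For Drd2 the list was Tmem202 (0.18), Ptk2b (0.22) and Rps6kl1 (0.23), and for Rarb it was Kcnq5 (0.085), Zfyve19 (0.092) and Fbxl14 (0.10). Prkcb, a protein kinase C gene, had 444, 447 and 1090 CPM in Input 1, 2 and 3 and 457, 447 and 460 CPM in IP, the flat IP level of Pde10a at a higher abundance.

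Further marker lists moved with replicate 3 as well. The GABAergic list is not one of other cells only, since striatal projection neurons are GABAergic too. It shares Meis2 with the other striatal list and Sst, Npy and Pvalb with the striatal interneuron list. In Input 3 the 20 GABAergic genes had a median ratio of 2.01 to the other Inputs, and 16 of its genes were highest there, against 38.4% of all tested genes. The same list stood at 2.04 in IP 3, where 16 genes were highest, a count for which no share over all tested genes was computed. Its sum was 1148, 1242 and 1936 CPM in Input 1, 2 and 3 and 147, 195 and 391 CPM in IP. Gad2, a GABA-making enzyme gene, had 569, 687 and 853 CPM in Input and 48.0, 106 and 119 CPM in IP. The 12 striatal interneuron genes summed to 161, 190 and 339 CPM in Input and 65.9, 54.9 and 150 CPM in IP, with Gbx1 at 0 in all IP libraries. The 16 hypothalamic genes stood at 0.24 in Input 3. The part of these cells in the levels of the 8 genes was not tested.

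**Figure D5:**
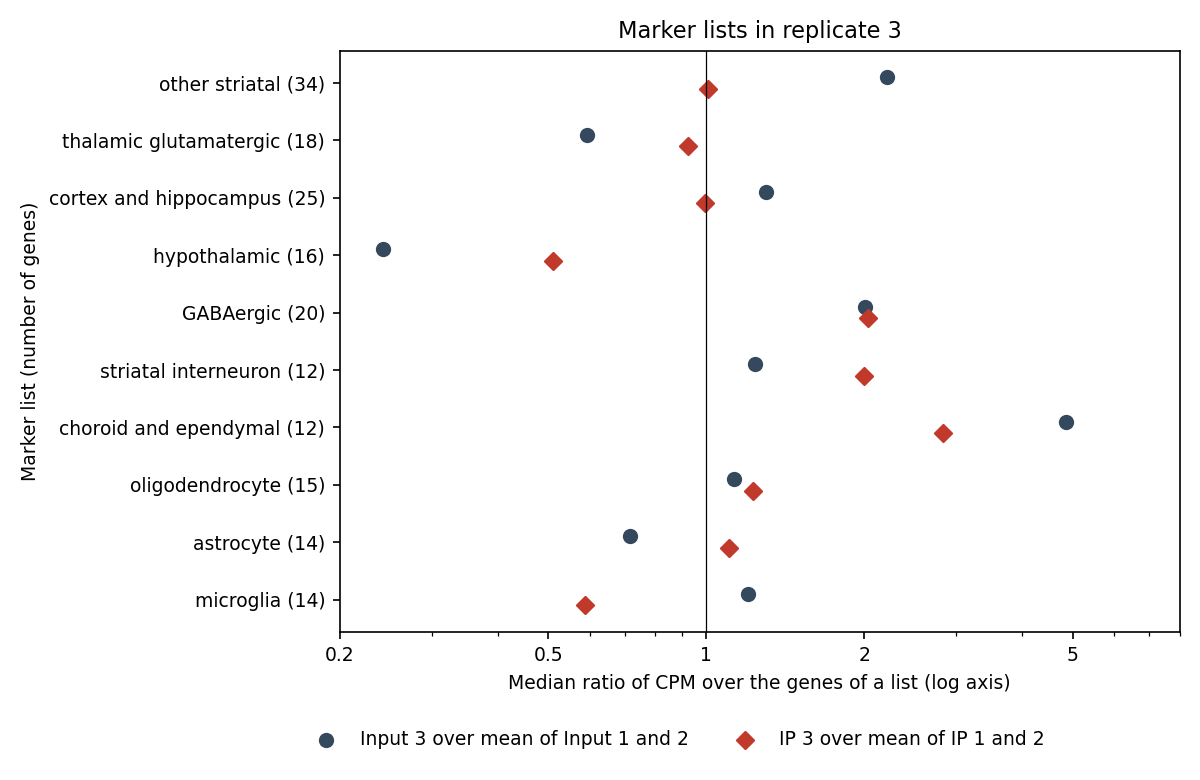
Median ratio over the genes of each marker list of the level in replicate 3 to the mean of replicates 1 and 2, for Input (dark circles) and IP (red diamonds), on a log axis, with the number of genes in parentheses. Choroid and ependymal genes are farthest to the right, at 4.85 in Input and 2.83 in IP. Other striatal genes stand at 2.21 in Input and 1.01 in IP, and thalamic genes at 0.59 and 0.92.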

How the data were processed

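Ribosome-bound RNA (IP) and Input of mouse thalamus were sequenced in 6 libraries. Groups and replicate numbers come from the titles. Each number has its own sequencing lane (3, 8 and 4), so lane and number cannot be told apart. The authors deposited whole-number read counts per gene. STAR 2.0.0e, the mm10 assembly and HTSeq are named per the submitters' processing notes. Neither annotation nor strand is given in the sources used here. Rows that name no gene were left out. In IP they held 7.65% to 7.85% of records as no feature and 1.53% to 1.92% as ambiguous. A further 38.5% to 45.0% were aligned at more than 1 place. In Input these shares were 14.0% to 17.7%, 7.37% to 13.2% and 23.6% to 27.2%. Read assignment thus differed between the groups. Its part in the IP-to-Input ratios of genes with exon overlap, such as Rarb and Ppp1r1b, was not tested.

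IP was compared with Input by edgeR 4.0.16 (R 4.3.3), with filterByExpr, TMM factors and the quasi-likelihood test, two-sided, Benjamini-Hochberg adjusted over 16496 genes at 0.05. A standard error is the log2 fold change divided by the root of its F value. Counts of IP against Input were also simulated for 16110 genes, of which 15919 had no true change. There edgeR called 38 of 65 genes with a true log2 change of 2, 2 of 63 with 1 and 0 of 63 with 0.5. It called 3 of the 15919 with none. In the real libraries edgeR called 25.2% of tested genes, and whether the rates above hold there was not tested. Gene positions and exon lengths are from GENCODE M21 on GRCm38. The 8 genes, the lists and the tests were chosen with earlier results of these data known. Named genes are the 8, up to 6 called genes per list and direction with a mean of 5 CPM or more, the 3 most abundant others, and the 3 nearest profiles per gene, of which 1 is not reported here. From the thalamic, cortex, choroid and GABAergic lists the 2 most abundant genes each were also to be named, and only Slc17a6, Camk2a, Rorb, Ttr and Gad2 of these are described. Same-numbered libraries deviated together from their group means (correlations across genes of 0.46, 0.22 and 0.25). The numbers were therefore used as pairs in the ratios within pairs and in the fit with the replicate block. The main fit, from which results are reported unless the block is named, did not use the pairing. Some genes that did not pass in it, such as Penk and Meis2, were called with the block. No libraries of a group agreed within sampling noise. Alternatives were other scalings, filters, DESeq2 1.42.0, limma-voom (limma 3.58.1), the replicate block and leaving out libraries.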

Additional observations from a re-analysis of the deposited data

How the results depend on the processing

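With 1 choice changed at a time, the median factor of Input 3 over the other Input libraries for the 8 genes lay between 2.92 and 4.06. Without 1 library or replicate number, the count of genes higher in IP ranged from 83 to 1640 over all genes, from 0 to 5 over other striatal genes, from 0 to 12 over the signalling genes and from 0 to 1 over retinoid genes. The counts of lower genes ranged from 651 to 2598, 0 to 5, 0 to 3 and 1 to 3. Over all genes the lowest counts came without both libraries of replicate 2. The higher count was 731 without IP 2, 810 without Input 2, 808 without IP 3 and 972 without replicate 3, and the lower count 1634 without IP 2. With the replicate block the pairing gave 2624 higher and 3163 lower genes over all genes. It gave 7 lower striatal, 5 lower signalling and 1 higher retinoid gene. Of the genes named, it changed no call beyond those given with it. DESeq2 called 7 lower striatal and 7 lower signalling genes, and limma-voom 2 lower striatal and 1 lower retinoid gene. Scaling by library totals or by upper quartiles, and leaving out the filter, each gave 3 lower striatal genes, no filter 1 lower signalling gene, and a minimum of 1 CPM 1 lower retinoid gene. Of genes that did not pass, Rgs7bp changed sign with library totals (-0.020), upper-quartile factors (-0.064) and the minimum of 1 CPM (-0.028), and ranged from -0.14 to 0.25 without libraries. Rara changed sign with upper-quartile factors (-0.046), the minimum of 1 CPM (-0.014), limma-voom (-0.016) and the block (-0.032), and ranged from -0.56 to 0.46. Without libraries Arpp21 ranged from -1.20 to 0.29 and Rxra from -0.48 to 0.011. The cause of these changes was not tested. Depth limits Adora2a in IP 1 and 2, with 6 and 1 reads.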

Other observations

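Of 34 striatal genes outside the 8, 11 were highest in IP 3, with a median ratio of 1.01 to the other IP libraries. The share of all tested genes highest in IP 3 was not computed, so nothing is read from that count. The following genes were chosen after their values were seen. Tac1, the substance P precursor gene of the direct-pathway class, had 41.8 CPM in IP 3 against 3.39 and 4.25 CPM in IP 1 and 2, and 12.3, 8.95 and 28.3 CPM in Input. Meis2, a homeobox gene, had 75.2 CPM in IP 3 against 1.38 and 5.44 CPM in IP 1 and 2, and 52.7, 96.5 and 237 CPM in Input. Ebf1 had 29.0 CPM in IP 3 against 7.48 and 4.68 CPM. In IP 1, 2 and 3 Ppp1r1b had 7.52, 4.82 and 26.3 CPM, Penk 13.9, 8.09 and 34.1 CPM, Adora2a 0.12, 0.019 and 1.32 CPM and Drd1 7.69, 2.95 and 4.87 CPM.

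Pdyn, the dynorphin precursor gene, had 16.6, 8.86 and 4.14 CPM in IP, against 3.63, 2.89 and 12.6 CPM in Input, the same turn of direction between pairs as Drd2. It did not pass (log2 0.63 ± 0.66, edgeR adjusted p = 0.530). Drd5, the other receptor gene of the Drd1 type, had 12.7, 10.2 and 7.85 CPM in IP, against 4.55, 4.07 and 7.11 CPM in Input. Its groups did not overlap, as was so for 44.9% of tested genes. Drd5 did not pass either (log2 0.97 ± 0.37, edgeR adjusted p = 0.0864), though it did without Input 3 (log2 1.26, edgeR adjusted p = 0.0321). Both were also picked after their values were seen.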
